A study of Mus musculus with 4 samples.

Results

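The major histocompatibility complex of the mouse, called H2, was followed here through its 43 genes with the prefix H2- among the 35275 genes counted in the livers of sedentary and interval-trained (IT) mice with and without AApoAII amyloidosis. Class I molecules are made of a heavy chain and beta-2-microglobulin and show peptides from the inside of nearly every nucleated cell to CD8 T cells and NK cells. Class II molecules are pairs of an alpha and a beta chain that show peptides taken up from outside to CD4 T cells, and they are made mainly by B cells, dendritic cells and macrophages, which in the liver include Kupffer cells. Members were taken by their gene symbol alone, and no level decided which symbols were kept. The choice to follow these genes, and of the lists set beside them, was made with earlier results of these data known. Of the 43 genes, 30 belonged to class I and 12 to class II. The remaining gene, H2-Ke6, carries an older name for a gene of the region that is no histocompatibility molecule, and it was left out of both classes.

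Livers were compared in a design of 2 by 2 groups: sedentary vehicle mice (VS), interval-trained vehicle mice (VI), sedentary mice injected with AApoAII fibrils (FS) and interval-trained mice injected with the fibrils (FI). All mice were females 26 weeks old at the end of 16 weeks of treadmill training or of sedentary life, and all of them carried the amyloidogenic Apoa2c allele, in the vehicle groups too. The sample labels give the strain as AKR/J with an Apoa2c congenic genotype, while the study's methods describe R1.P1-Apoa2c mice, a line with the Apoa2c allele of SAMP1 on the SAMR1 background. Liver of 4 mice per group was pooled before RNA extraction, so that 16 mice gave 4 libraries, and no value has an error between mice.

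Each library held between 23442935 counts in VS and 28814802 counts in FS, and levels are given as CPM (counts per 1000000 of a library, its size scaled by edgeR's TMM factors) or, between genes, as the deposited FPKM, which also divides by gene length. A log2 ratio between a pair of libraries is written with a slash, VI/VS being VI over VS, and the interval after it is a 95% exact binomial (Clopper-Pearson) interval. Since each group is 1 pooled library, all intervals and limits given here describe the error of counting reads alone. The reads carry no molecular identifiers, so this is not the error of counting molecules. The hepatocyte markers summed to between 152556 CPM in VS and 164884 CPM in FI, of which Alb made up 119865 and 135778 CPM. Single markers did not all follow this sum. Cyp2e1 stood at 11182 (VS), 9742 (VI), 6011 (FS) and 8798 CPM (FI), and Ttr at 7283, 6052, 6294 and 4857 CPM. The VS library stood apart by its skeletal muscle transcripts, 8 markers that summed to 66.9 (VS), 7.51 (VI), 0.78 (FS) and 0.12 CPM (FI), and the contrasts FI/FS and FI/VI are the ones without this library. With 1 pool per group, "higher" and "lower" below compare libraries. A contrast between groups had no test, and in a pooled tissue fewer cells of a type and less RNA per cell cannot be told apart.

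Transcription of these genes is known to start from short upstream stretches with shared elements. Many class I promoters hold a kappa B site and an interferon response element, and promoters of class II genes hold an X box and a Y box that the RFX and NF-Y factors bind and on which the coactivator CIITA assembles. The 250 bases before the RefSeq start of 6 members are printed here, since these are the genes on which the comparisons below turn: both classical class I genes, the class I member with the largest ratio in a contrast of IT among the well-covered ones, the liver-rich H2-Q10, and a beta and an alpha chain of class II. The letters are those of the GRCm38.p6 reference and not of the alleles of the mice studied. Capitals mark the matches of the kappa B letters GGGGATTCC, the interferon response letters TTTCACTT and the Y box letters TGATTGG, read on both strands, so that CCAATCA is a Y box on the opposite strand. The windows lie at chr17:34000348-34000597 (- strand), chr17:35262844-35263093 (+ strand), chr17:35424600-35424849 (+ strand), chr17:35469839-35470088 (+ strand), chr17:34305617-34305866 (+ strand) and chr17:34287824-34288073 (- strand), in the order of the lines. The H2-D1 window lies within the deposited limits of that gene, whose RefSeq start is further downstream.
H2-K1: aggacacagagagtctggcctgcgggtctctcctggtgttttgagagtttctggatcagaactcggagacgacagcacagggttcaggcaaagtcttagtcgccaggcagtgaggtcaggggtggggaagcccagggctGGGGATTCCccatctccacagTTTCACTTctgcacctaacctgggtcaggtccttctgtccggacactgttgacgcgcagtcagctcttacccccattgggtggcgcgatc
H2-D1: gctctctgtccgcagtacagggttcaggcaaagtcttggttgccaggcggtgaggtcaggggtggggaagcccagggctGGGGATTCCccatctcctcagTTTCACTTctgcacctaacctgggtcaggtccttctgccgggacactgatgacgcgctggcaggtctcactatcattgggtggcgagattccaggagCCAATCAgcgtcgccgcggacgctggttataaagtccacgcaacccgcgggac
H2-Q6: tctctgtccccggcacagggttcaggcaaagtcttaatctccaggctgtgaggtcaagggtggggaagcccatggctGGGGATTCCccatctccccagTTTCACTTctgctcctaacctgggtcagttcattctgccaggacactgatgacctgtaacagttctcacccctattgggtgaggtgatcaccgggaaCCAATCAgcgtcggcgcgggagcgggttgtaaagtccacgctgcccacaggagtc
H2-Q10: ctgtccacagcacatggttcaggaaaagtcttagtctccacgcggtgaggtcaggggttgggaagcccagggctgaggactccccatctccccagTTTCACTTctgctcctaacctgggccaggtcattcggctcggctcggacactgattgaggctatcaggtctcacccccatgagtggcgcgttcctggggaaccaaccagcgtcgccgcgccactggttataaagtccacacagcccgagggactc
H2-Eb1: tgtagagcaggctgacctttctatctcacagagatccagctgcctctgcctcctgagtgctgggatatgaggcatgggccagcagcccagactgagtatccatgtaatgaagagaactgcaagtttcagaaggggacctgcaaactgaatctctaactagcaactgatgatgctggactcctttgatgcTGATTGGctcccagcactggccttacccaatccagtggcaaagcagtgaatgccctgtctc
H2-Aa: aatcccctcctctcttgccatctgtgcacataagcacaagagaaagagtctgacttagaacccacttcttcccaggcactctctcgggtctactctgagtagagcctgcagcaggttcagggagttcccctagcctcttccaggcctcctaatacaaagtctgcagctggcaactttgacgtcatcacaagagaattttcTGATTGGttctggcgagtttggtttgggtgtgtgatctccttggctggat

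Among the 43 members, 31 had a RefSeq window, 14 of them among the 18 members that reached 1 CPM in some library. The kappa B letters stood in 4 of the 10 class I windows of this level, those of H2-K1, H2-D1, H2-Q6 and H2-Q7, and in 0.213% of all 32851 mouse windows. The interferon response letters stood in 8 of the 10 class I windows, H2-Q10 included, and in 1.36% of all windows. Both motifs were absent from the 4 class II windows of this level and from those of the 4 class II members below it. The Y box letters, present in 7.23% of all windows, stood in 3 of these 4 class II windows (H2-Eb1, H2-Aa and H2-DMb2) and in all 4 of the weakly expressed class II members, H2-Eb2, H2-DMb1, H2-Ob and H2-Oa. They also stood in 6 of the 10 class I windows. The remaining class II gene, H2-DMa, had windows at chr17:34122582-34122831 and chr17:34125268-34125517, well upstream of its deposited start at chr17:34135182. The lack of these letters there therefore does not describe the stretch before that start. The X box was not searched. A match is a description of letters and no evidence of binding, and windows for H2-Ab1, H2-T10, H2-T24 and H2-Q1 were not analysed here.

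**Figure D1:**
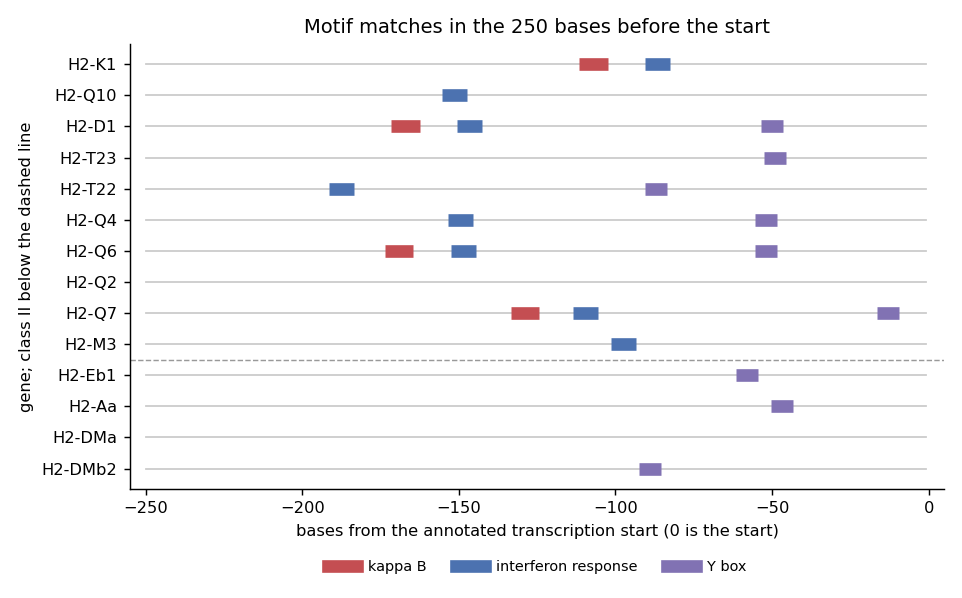
Matches of 3 motifs in the 250 bases before the RefSeq start of the 14 H2 genes with a window and at least 1 CPM in at least 1 library; the x axis is the distance from the start in bases, each row is a gene and each coloured block a match. In H2-K1, H2-D1, H2-Q6 and H2-Q7 the kappa B block lies just upstream of the interferon response block, and H2-Eb1, H2-Aa and H2-DMb2 hold a Y box block alone.

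The H2 genes were expressed very unequally. Of the 43 members, 18 reached 1 CPM in at least 1 library (13 of class I, 5 of class II), 10 had counts below this level and 15 had a count of 0 in all libraries, for which a floor of 3 counts corresponds to 0.127, 0.123, 0.102 and 0.124 CPM in VS, VI, FS and FI. Of those at 0, 11 were class I genes (H2-Q3, H2-Q5 and members of the M group), 3 were the class II genes H2-Ea-ps, H2-Pa and H2-Pb, and the other was H2-Ke6. H2-Ke6 lies within Gm20427 on the same strand, shares 61.6% of its 100-base stretches with it, and both were listed at 0. H2-Ea-ps is the reference copy of the E alpha chain gene, which in strains with an intact copy supplies the partner of the H2-Eb1 product. H2-Eb1 was the class II gene with the highest level, at 13.8 (VS), 8.58 (VI), 15.2 (FS) and 10.6 FPKM (FI). The mice's own E alpha allele was not analysed here. No row of the table carried the symbol H2-L.

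Class I exceeded class II by far. Class I counts summed to 1937 (VS), 1825 (VI), 1992 (FS) and 1626 CPM (FI), against 35.2, 24.3, 38.4 and 27.6 CPM for class II. By mean FPKM over the libraries the order was H2-K1 (205), H2-Q10 (186), H2-D1 (107) and H2-T23 (105), followed at a distance by H2-T22 (19.8), H2-Eb1 (12.0), H2-Q4 (10.0) and H2-Q6 (7.34). H2-K1 and H2-D1 encode the classical heavy chains, H2-Q10 a heavy chain secreted by the liver, and H2-T23 the Qa-1 molecule that presents leader peptides to NK cell receptors. The order of neighbours depended on the library: H2-Q10 made up 30.4% of the summed class I FPKM in VS and 31.1% in FS, more than the 27.5% and 30.8% of H2-K1, whereas in VI and FI it made up 26.6% and 24.0%, less than the 32.4% and 33.9% of H2-K1. In class II, H2-Eb1 made up between 43.3% and 47.9% of the summed FPKM, and H2-Aa and H2-Ab1, at means of 5.50 and 5.67 FPKM, exchanged places between libraries. Levels of polymorphic genes can depend on how well the mice's alleles match the reference, a property that all groups share.

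**Figure D2:**
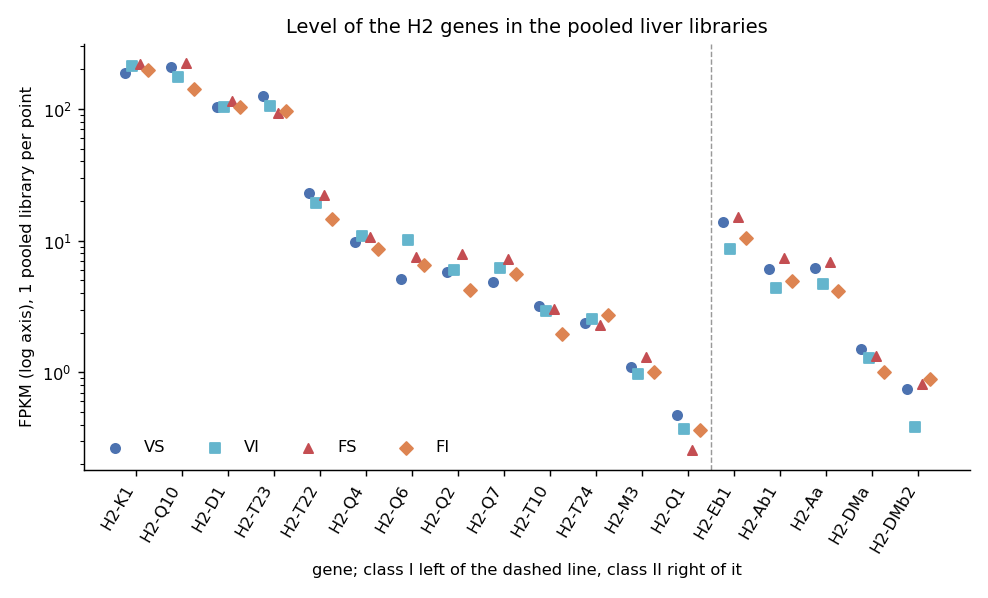
FPKM (log axis) of the 18 H2 genes that reached 1 CPM in some library, with 1 point per pooled library and no error between mice; class I genes stand left of the dashed line and class II genes right of it, each ordered by mean FPKM. H2-K1, H2-Q10, H2-D1 and H2-T23 stand above all others in each library, and H2-Eb1 leads class II with 8.58 to 15.2 FPKM.

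Some class I members are near copies of each other, so that part of their reads cannot be placed with certainty. Of the 100-base stretches in GENCODE M21 transcripts, H2-T22 shares 31.5% and H2-T10 28.1% with transcripts of other genes, H2-Q4 14.1%, H2-Q6 13.0% and H2-Q7 12.0%, against 0.957% for H2-K1. The partners of H2-T22 are A930015D03Rik, H2-T10 and BC023719, and those of H2-Q6 include H2-Q7. H2-T22, H2-T23 and H2-T24 overlap A930015D03Rik and H2-Q4 overlaps Gm11131 on the opposite strand, and the sources used here do not give whether reads were counted by strand. H2-Aa, H2-Ab1 and H2-Eb1 share no 100-base stretch with other genes.

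The first question was how these genes differed between trained and sedentary livers, with and without amyloidosis. Class II genes were lower in the trained pool in both settings. Their summed counts had a log2 ratio of -0.54 (-0.69 to -0.38) for VI/VS and of -0.48 (-0.62 to -0.34) for FI/FS, contrasts that share no library. Of the 5 class II members with at least 1 CPM, 5 were lower in VI than VS and 4 in FI than FS, and the same 4 were lower in both. Of all 12180 genes at this level, 49.3% were lower in VI, 49.8% in FI and 29.8% in both. The median log2 ratio of these members was -0.46 and -0.45, beside medians of 0.00 and 0.00 over all genes. No H2 gene of either class was beyond 2-fold in these contrasts (0 of 18), which 3.44% of all genes were for VI/VS and 4.28% for FI/FS.

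H2-Eb1 (chr17:34305877-34316199), the E beta chain, stood at 16.2 (VS), 10.2 (VI), 17.5 (FS) and 12.8 CPM (FI). Both sedentary pools were above both trained pools. Its log2 ratio was -0.67 (-0.90 to -0.43) for VI/VS and -0.45 (-0.66 to -0.24) for FI/FS.

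H2-Ab1 (chr17:34263209-34269418), the A beta chain, stood at 7.28 (VS), 5.30 (VI), 8.67 (FS) and 6.12 CPM (FI). H2-Aa (chr17:34282744-34287827), the A alpha chain, stood at 6.94, 5.38, 7.66 and 4.84 CPM in the same order. For these partners, too, both sedentary pools lay above both trained pools. The log2 ratios of VI/VS were -0.46 (-0.80 to -0.12) for H2-Ab1 and -0.37 (-0.71 to -0.03) for H2-Aa. In FI/FS they were -0.50 (-0.81 to -0.21) and -0.66 (-1.0 to -0.33).

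The H2-DM genes, whose product exchanges peptides in the class II groove, were low and less clear. H2-DMa stood at 2.33 (VS), 2.01 (VI), 2.03 (FS) and 1.61 CPM (FI), with a log2 ratio of -0.21 (-0.80 to 0.37) for VI/VS and -0.33 (-0.95 to 0.27) for FI/FS. H2-DMb2 had 26 (VS), 14 (VI), 35 (FS) and 33 counts (FI), the lowest value being that of VI. Its log2 ratio was -0.91 (-1.99 to 0.05) for VI/VS and 0.20 (-0.53 to 0.93) for FI/FS, so that H2-DMb2 was the class II member without a lower value in FI. H2-DMb2 shares 10.3% of its 100-base stretches with H2-DMb1. Below 1 CPM, H2-DMb1 had 13, 13, 25 and 13 counts in VS, VI, FS and FI, H2-Ob had 13, 3, 6 and 4, H2-Oa had 2, 0, 3 and 0, and H2-Eb2 had 3, 3, 5 and 3. H2-Oa and H2-Ob encode the DO modulator of peptide loading, which B cells make. The log2 ratio of H2-Ob was -1.99 (-4.61 to -0.30) for VI/VS and -0.24 (-2.57 to 1.78) for FI/FS, and the counts of H2-Oa were too few for a ratio.

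**Figure D3:**
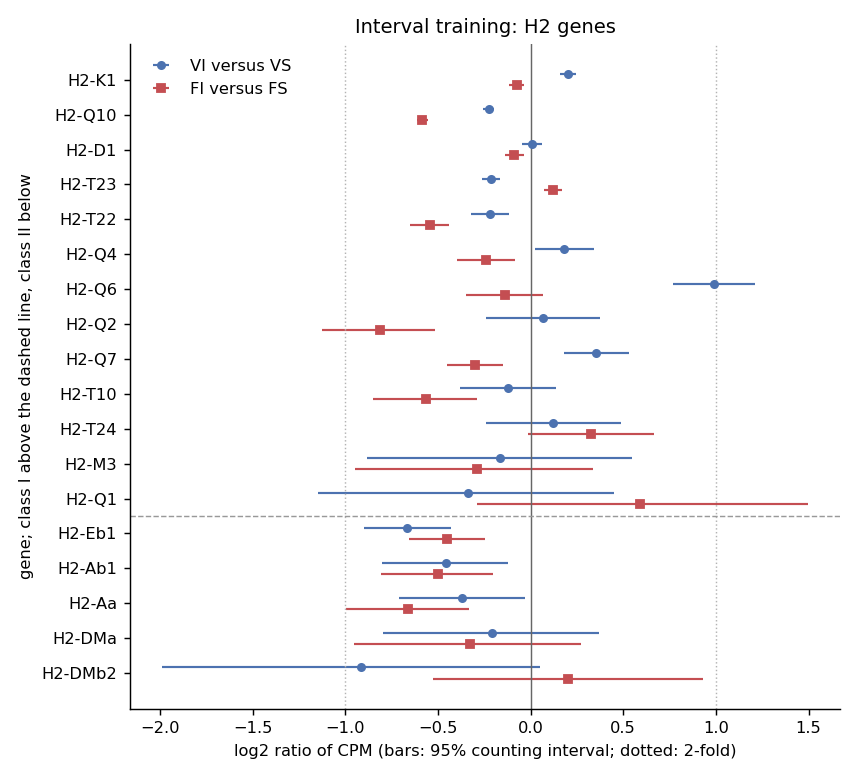
Log2 ratio of CPM in trained against sedentary pools for 18 H2 genes, in vehicle livers (circles, VI versus VS) and fibril livers (squares, FI versus FS); bars are 95% counting intervals, and dotted lines mark 2-fold. H2-Eb1, H2-Ab1 and H2-Aa lie below 0 in both contrasts with their intervals, while H2-K1, H2-T23, H2-Q4 and H2-Q7 lie on opposite sides of 0.

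Markers of the cells that make class II were examined beside it. The B cell markers Ms4a1, Cd79a, Cd79b, Cd22 and Pax5 summed to 4.53 (VS), 2.26 (VI), 3.52 (FS) and 2.27 CPM (FI), and the 3 of them with at least 1 CPM were lower in both contrasts of IT. The range was 3.52 to 4.53 CPM in sedentary and 2.26 to 2.27 CPM in trained pools, which is the same separation as for class II. Each of these 5 markers was above 0 in every library, with between 1 and 35 counts. The Kupffer cell markers summed to 204 (VS), 255 (VI), 318 (FS) and 300 CPM (FI), and the 6 listed were all higher in VI than in VS. The markers of other macrophages and monocytes summed to 39.4 (VS), 34.6 (VI), 74.4 (FS) and 55.3 CPM (FI), nearly all of them counts of Lyz2. The log2 ratios of this sum were -0.19 (-0.33 to -0.05) for VI/VS and -0.43 (-0.53 to -0.33) for FI/FS. Other markers of this list did not all follow it, with Trem2 at 18, 32, 26 and 16 counts and Ccr2 at 9, 12, 25 and 12. Gpnmb had 0, 0, 29 and 0 counts, Ly6c2 had 6, 4, 10 and 8, and Cx3cr1 had 7, 5, 7 and 3. Dendritic cell markers summed to 8.98, 9.36, 7.25 and 8.06 CPM, of which Zbtb46 made up 6.48, 6.81, 4.40 and 5.87 CPM. Other dendritic cell markers did not follow that sum: Itgax had 8, 6, 30 and 3 counts and a log2 ratio of -2.84 (-5.39 to -1.35) for FI/FS, and Ccr7 had 12, 14, 9 and 4 counts. The markers of T and NK cells summed to 1.74, 1.64, 2.20 and 1.69 CPM, and the leukocyte gene Ptprc stood at 6.06, 5.79, 7.05 and 5.62 CPM. Thus the sums of B cells and of other macrophages, the latter nearly all Lyz2, were lower, as class II was, in both contrasts of IT. The T and NK cell sum had log2 ratios of -0.08 (-0.75 to 0.58) for VI/VS and -0.37 (-0.98 to 0.21) for FI/FS, intervals that span 0. None of its 8 markers reached 1 CPM, and they differed in direction. Cd3d had 3, 5, 5 and 7 counts in VS, VI, FS and FI, and Cd8a had 3, 2, 7 and 1. The general leukocyte gene Ptprc was lower in both contrasts of IT as well. Ptprc had log2 ratios of -0.07 (-0.41 to 0.28) for VI/VS and -0.32 (-0.65 to -0.01) for FI/FS. The dendritic cell sum was higher in both contrasts, with log2 ratios of 0.06 (-0.22 to 0.34) for VI/VS and 0.15 (-0.13 to 0.44) for FI/FS. Both of these intervals span 0. The Kupffer cell sum was higher in VI than in VS, at 0.32 (0.27 to 0.38), and lower in FI than in FS, at -0.08 (-0.12 to -0.04). The class II ratio of -0.48 for FI/FS does not involve the VS library with its muscle transcripts. The muscle marker sum also differed between FS and FI, however, at 0.78 and 0.12 CPM. The part of cell numbers or of muscle tissue in the class II values was not tested.

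**Figure D4:**
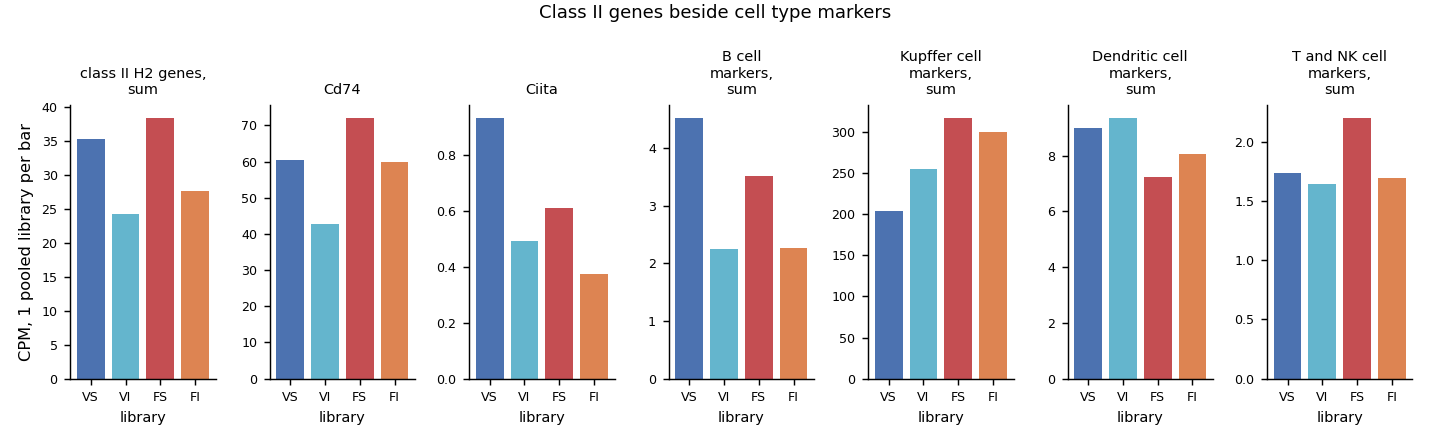
CPM by pooled library for the summed class II H2 genes, their chaperone gene Cd74, their coactivator gene Ciita and the summed markers of 4 cell types; each bar is 1 library, each panel has its own axis from 0, and no error between mice exists. Class II, Cd74, Ciita and the B cell markers are lower in each trained pool than in its sedentary pool, and the Kupffer cell markers are higher in VI than in VS.

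The 2 by 2 design allows a test if the effects of amyloidosis and IT are taken as additive, which leaves 1 residual degree of freedom, the interaction. In this model, fitted to 11760 genes with edgeR's robust quasi-likelihood method, no H2 member changed with IT after Benjamini-Hochberg adjustment (0 of 18, beside 1.48% of all genes). At an unadjusted p below 0.05 there were 5 of 18, namely H2-Eb1, H2-Aa, H2-Ab1, H2-Q10 and H2-T22, all of them lower with IT, beside 7.45% of all genes in this direction. The smallest adjusted p was that of H2-Eb1, with a log2 fold change of -0.55 (SE 0.15) and an adjusted p of 0.138 by edgeR's quasi-likelihood test. The estimates for H2-Aa and H2-Ab1 were -0.52 (SE 0.19, adjusted p = 0.274) and -0.48 (SE 0.18, adjusted p = 0.272) in the same edgeR fit. DESeq2 and limma-voom called 0 of 18 as well.

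Class I showed no direction common to both contrasts of IT. For VI/VS, 4 members had a counting interval above 0 and 3 below, and for FI/FS, 1 above and 8 below. Such intervals are narrow in genes with many counts. The share of all genes with an interval clear of 0 was not counted, so these numbers have no background beside them. Of its 13 members with at least 1 CPM, 7 were higher and 6 lower in VI than VS (median log2 ratio 0.01, beside -0.01 when total counts set the scale), and 3 were higher and 10 lower in FI than FS (median -0.24). Of the 13, 4 were lower and 1 was higher in both, and 8 had opposite signs, beside 39.5% of all genes. The summed class I counts, of which H2-Q10 is the largest part, had a log2 ratio of -0.09 (-0.10 to -0.07) and -0.29 (-0.31 to -0.27). For the classical genes alone the first of these sums turned to 0.13.

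H2-Q10 (chr17:35470089-35474563) stood at 890 (VS), 761 (VI), 941 (FS) and 627 CPM (FI). Both trained pools were below both sedentary pools, and FI was the lowest. The log2 ratio was -0.23 (-0.26 to -0.20) for VI/VS and -0.58 (-0.61 to -0.56) for FI/FS, and the additive model gave -0.40 (SE 0.14) at an adjusted p of 0.251 in the edgeR fit.

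H2-T22, a non-classical heavy chain recognised by a subset of gamma delta T cells, was lower in both trained pools than in both sedentary pools as well, with 69.6 (VS), 59.9 (VI), 67.0 (FS) and 45.9 CPM (FI). Its log2 ratios were -0.22 (-0.32 to -0.11) and -0.54 (-0.65 to -0.44). FI held the lowest value of both genes. In the additive model the estimate for H2-T22 was -0.38 (SE 0.12, adjusted p = 0.207, edgeR).

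The classical genes had small ratios. H2-K1 (chr17:33996017-34000333) stood at 349 (VS), 401 (VI), 404 (FS) and 383 CPM (FI), so that VS was the lowest pool and the others lay close together. Its log2 ratio was 0.20 (0.16 to 0.24) for VI/VS and -0.08 (-0.11 to -0.04) for FI/FS. H2-D1 (chr17:35262730-35267499) stood at 218, 219, 238 and 224 CPM, with 0.01 (-0.05 to 0.06) and -0.09 (-0.14 to -0.04), and the direction of the first of these turned when libraries were scaled by their total counts alone.

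H2-T23 was highest in VS, at 327 CPM, against 282 in VI, 242 in FS and 263 in FI. It had log2 ratios with IT of -0.21 (-0.26 to -0.17) in vehicle livers and 0.12 (0.07 to 0.17) in fibril livers. H2-Q4, a Qb-1 type gene of the Q region, stood at 25.2, 28.5, 27.2 and 23.0 CPM in VS, VI, FS and FI, with 0.18 (0.02 to 0.34) and -0.24 (-0.40 to -0.08). Both genes therefore differed in direction between vehicle and fibril livers. Opposite signs with both intervals clear of 0 were found in 4 of 18 members, beside 6.61% of all genes.

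H2-Q6, a Qa-2 gene, had the largest ratio with IT among class I members with at least 1 CPM, since it stood at 10.7 (VS), 21.2 (VI), 15.4 (FS) and 14.0 CPM (FI). VI was the highest pool and VS the lowest. The log2 ratio was 0.99 (0.77 to 1.21) for VI/VS and -0.14 (-0.35 to 0.06) for FI/FS. The difference between these ratios was -1.13 (-1.43 to -0.83), an interval that again covers counting error only. The remaining 6 class I members with at least 1 CPM had log2 ratios from -0.34 (H2-Q1) to 0.35 (H2-Q7) for VI/VS and from -0.81 (H2-Q2) to 0.59 (H2-Q1) for FI/FS; these genes are named as the ends of the ranges, after their values were seen.

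The second question was how the livers with amyloidosis differed from those without. The contrasts FS/VS and FI/VI share no library with each other, but each shares its libraries with the contrasts of IT above. In sedentary livers no H2 gene was beyond 2-fold (0 of 18, beside 5.80% of all genes), and in trained livers 1 of 18 was (beside 4.54%). That gene was H2-DMb2, with 14 counts in VI and 33 in FI and a log2 ratio of 1.22 (0.31 to 2.26), whereas it had 26 counts in VS and 35 in FS and a ratio of 0.10 (-0.67 to 0.90).

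Most ratios of the classical class II chains lay above 0 here. H2-Eb1 had a log2 ratio of 0.11 (-0.08 to 0.31) for FS/VS and 0.33 (0.08 to 0.57) for FI/VI. H2-Ab1 had 0.25 (-0.03 to 0.54) and 0.21 (-0.14 to 0.56), and H2-Aa had 0.14 (-0.16 to 0.44) and -0.15 (-0.53 to 0.22). Of these 6 ratios, only that of H2-Eb1 for FI/VI had an interval clear of 0. The summed class II counts had 0.12 (-0.01 to 0.26) and 0.18 (0.02 to 0.35).

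Class I again had no direction common to both contrasts. For FS/VS, 6 members had a counting interval above 0 and 2 below, and for FI/VI, 0 above and 8 below. Here, too, the share of all genes with such intervals was not counted. In FS/VS, 8 of 13 members were higher and 5 lower (median 0.11, with 52.0% of all genes higher), and for FI/VI, 4 were higher and 9 lower (median -0.11, with 48.7% of all genes lower), beside medians of 0.02 and 0.01 over all genes. The signs were opposite in 8 of 13, beside 33.7% of all genes. H2-T23 was lower in both, with log2 ratios of -0.44 (-0.48 to -0.39) and -0.10 (-0.15 to -0.05), and it had the smallest adjusted p of the members for amyloidosis, 0.28 in the edgeR fit (log2 fold change -0.27, SE 0.13). H2-K1 had 0.21 (0.17 to 0.25) and -0.07 (-0.11 to -0.03). H2-Q10 had 0.08 (0.05 to 0.11) and -0.28 (-0.31 to -0.25), and H2-Q6 had 0.53 (0.31 to 0.76) and -0.60 (-0.80 to -0.40). These 3 genes thus stood on opposite sides of 0 in sedentary and trained livers, a difference that could not be tested. With H2-Q2 they were the 4 of 18 members with opposite signs and both intervals clear of 0, beside 4.67% of all genes. H2-D1 had 0.13 (0.07 to 0.18) and 0.03 (-0.02 to 0.09). H2-T22 and H2-Q4 had -0.06 and 0.11 in sedentary livers and -0.38 and -0.31 in trained ones. In the additive model 0 of 18 members changed with amyloidosis (beside 4.97% of all genes), and 0 of 18 had an unadjusted p below 0.05 (beside 21.4%).

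**Figure D5:**
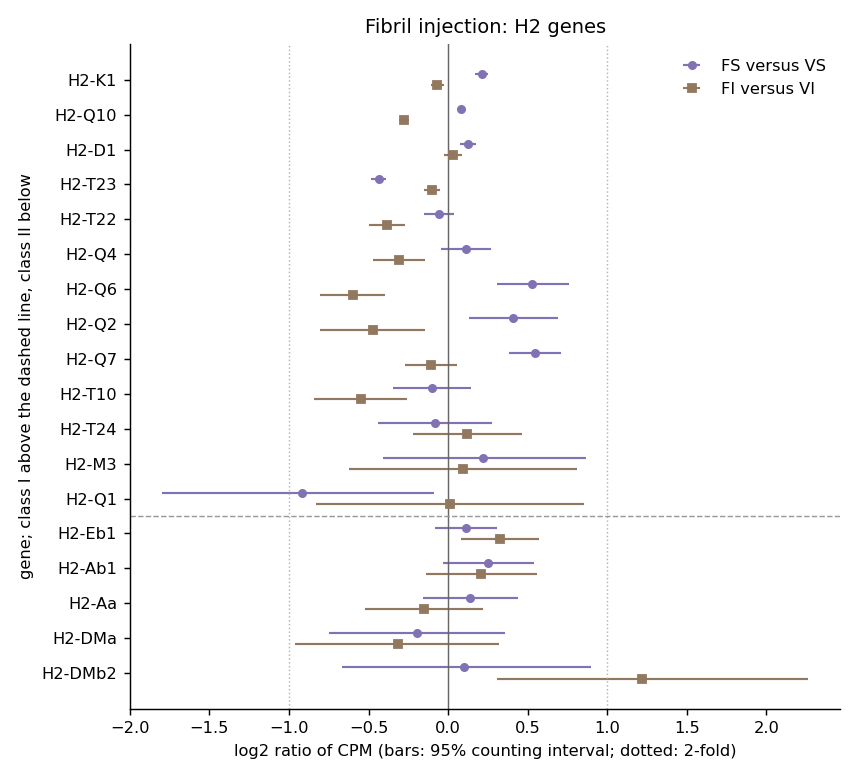
Log2 ratio of CPM in fibril against vehicle pools for 18 H2 genes, in sedentary livers (circles, FS versus VS) and trained livers (squares, FI versus VI); bars are 95% counting intervals and dotted lines mark 2-fold. H2-T23 lies below 0 in both contrasts, H2-K1, H2-Q10, H2-Q6 and H2-Q2 lie on opposite sides of 0, and H2-DMb2 in FI versus VI is the single gene beyond 2-fold.

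The genes that load peptides onto these molecules were taken from a list of 31 genes, of which 30 had at least 1 CPM. On the class I side, B2m, the common light chain, stood at 1202 (VS), 1145 (VI), 1134 (FS) and 1091 CPM (FI). The peptide transporter gene Tap1 stood at 14.8, 13.5, 13.9 and 15.5 CPM and Tap2 at 18.1, 17.3, 16.5 and 14.9 CPM. Tapbp (tapasin), which holds class I at the transporter, stood at 84.3, 78.6, 72.5 and 66.3 CPM. None of these 4 genes passed the test for either factor. Nlrc5, the transactivator of class I genes, stood at 10.9, 12.8, 15.4 and 16.8 CPM, with an adjusted p of 0.123 for amyloidosis in the edgeR fit.

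The immunoproteasome gene Psmb9 stood at 12.2 (VS), 8.0 (VI), 12.7 (FS) and 7.15 CPM (FI), with both trained pools below both sedentary pools as in class II. Its estimate for IT was -0.72 (SE 0.16) with an adjusted p of 0.0819 in the edgeR fit. Psmb8, another immunoproteasome gene, stood at 14.5, 13.3, 13.1 and 12.7 CPM. Of the 18 class I pathway genes, 2 rose with amyloidosis at an adjusted p below 0.05 (beside 2.81% of all genes) and none changed with IT (beside 1.48%). They were Calr and Pdia3, chaperones of the endoplasmic reticulum that fold many glycoproteins besides class I heavy chains. Calr stood at 336, 316, 651 and 586 CPM (adjusted p = 0.00762, edgeR) and Pdia3 at 213, 221, 392 and 390 CPM (adjusted p = 0.00889, edgeR), while no class I heavy chain passed the same test; both were named after their values were seen.

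On the class II side, Cd74, the invariant chain that escorts class II dimers, stood at 60.6 (VS), 42.7 (VI), 72.1 (FS) and 59.8 CPM (FI). Within each amyloidosis state the trained pool was below the sedentary one, by a log2 ratio of -0.50 (-0.62 to -0.39) for VI/VS and of -0.27 (-0.37 to -0.17) for FI/FS. Its estimate for IT was -0.38 (SE 0.12) with an adjusted p of 0.183 in the edgeR fit. Ciita, the master coactivator of class II genes, had 22 (VS), 12 (VI), 18 (FS) and 9 counts (FI), below 1 CPM throughout, and its ratios with IT were -0.89 (-2.07 to 0.16) and -0.67 (-2.05 to 0.52).

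The lysosomal proteases had no common direction with IT. Ctss, which trims the invariant chain in antigen-presenting cells, stood at 15.3 (VS), 20.6 (VI), 28.9 (FS) and 28.8 CPM (FI) and was the 1 gene of the 12 fitted class II pathway genes that rose with amyloidosis, beside 2.81% of all genes (log2 fold change 0.69, SE 0.15, adjusted p = 0.0362, edgeR). Ctsl, a general lysosomal protease, stood at 509, 1218, 1004 and 1512 CPM and was the only gene of the list beyond 2-fold in a contrast, with a log2 ratio of 1.26 (1.23 to 1.29) for VI/VS. None of the 12 changed with IT after adjustment, Ctsl having an adjusted p of 0.0537 in the edgeR fit. Lgmn, an asparaginyl endopeptidase of lysosomes, stood at 59.1, 62.4, 83.5 and 70.3 CPM, with 0.08 (-0.03 to 0.19) for VI/VS and -0.25 (-0.34 to -0.16) for FI/FS, and Ctss had 0.43 (0.23 to 0.63) and -0.01 (-0.15 to 0.14); Lgmn was named after its values were seen. The Kupffer cell markers given above were also highest in FS and FI and lowest in VS, and their part in the values of Ctss was not tested.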

How the data were processed

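Liver RNA of 4 pools, each of 4 mice, was sequenced. The authors deposited read counts per gene without normalization and FPKM values made from them: FPKM recomputed from counts, gene length and total count differed from the deposited ones by a relative 3.07e-07 at most. The submitters' processing notes name fastp 0.23.2, STAR 2.5, HTSeq 0.6.1 and mm10. The sources used here do not give the annotation release or the strand setting. Of 43 members, 30 have the start and end of GENCODE M21, with 27 of 30 in class I and 2 of 12 in class II. H2-Eb1, H2-Ab1 and H2-Aa are among those that differ.

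Counts were scaled by TMM (edgeR 4.0.16, R 4.3.3). Log2 ratios used CPM with a prior of 0.5 counts, among the 12180 genes that reached 1 CPM in 1 library or more. The additive model (edgeR robust quasi-likelihood, Benjamini-Hochberg, called at an adjusted p below 0.05) held the 11760 genes that did so in 2 or more, took each pool as 1 sample and was tested on simulated data. Nothing repeats a pool, so its p-values rest on the additivity of both factors. Alternatives used DESeq2 1.42.0, limma 3.58.1, scaling by total counts, FPKM plus a pseudocount (1 or 0.1), other filters and a fold of 1.5. Promoter letters and motifs were read from RefSeq windows, and shared stretches of 100 bases were counted over GENCODE M21 transcripts. Figures were drawn with matplotlib 3.10.9. Named genes were the classical class I and class II chains, the class II loading genes, any other member beyond 2-fold, the 5 other class I members with the highest mean FPKM, and from the antigen presentation list B2m, Tap1, Tap2, Tapbp, Nlrc5, Psmb8, Psmb9, Cd74, Ciita, Ctss and any gene beyond 2-fold. Of the marker lists, Adgre1 and Jchain had no row, and 1 gene is not reported here. Markers of neutrophils summed to 1.91, 2.09, 4.23 and 3.10 CPM in VS, VI, FS and FI, of sinusoidal endothelium to 156, 152, 135 and 157, and of stellate cells to 177, 154, 156 and 189. Single endothelial markers differed in direction within their sum. Lyve1 had 16, 25, 54 and 159 counts, while Kdr stood at 38.4, 36.5, 28.1 and 26.7 CPM. The plasma cell sum of 239, 289, 246 and 296 was nearly all Sdc1, which hepatocytes also express, while Mzb1 stood at 0.423, 0.287, 0.339 and 0.579 CPM and Tnfrsf17 had 0, 0, 5 and 0 counts. The members and lists were chosen with earlier results of these data known.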

Additional observations from a re-analysis of the deposited data

Results flagged for a closer look

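Several class I genes had opposite directions in the paired contrasts, with both counting intervals clear of 0, and with 1 pool per group none of these differences could be tested. With IT, the log2 ratios in vehicle and in fibril livers were 0.20 and -0.08 for H2-K1, -0.21 and 0.12 for H2-T23, 0.18 and -0.24 for H2-Q4, and 0.35 and -0.30 for H2-Q7. With amyloidosis, the ratios in sedentary and in trained livers were 0.21 and -0.07 for H2-K1, 0.08 and -0.28 for H2-Q10, 0.53 and -0.60 for H2-Q6, and 0.41 and -0.47 for H2-Q2. H2-Q6 and H2-Q7 share stretches of their transcripts, and H2-Q4 overlaps Gm11131. How many genes show this depends on the counts they have. No class II gene showed this pattern. H2-Q2 and H2-Q7 appear here for this pattern alone, after their values were seen.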

How the results depend on the processing

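No paired analysis was possible because each group is 1 pooled library and has no replicate to leave out. The count of members beyond 2-fold was decided by the treatment of low counts. With no filter on them it was 5 of 28 members in FS versus VS, 3 of 26 in FI versus VI, 5 of 26 in VI versus VS and 5 of 28 in FI versus FS, and at a fold of 1.5 it was 1, 2, 3 and 3 of 18. With at least 5 CPM it was 0 of 14 in FI versus VI, since H2-DMb2 is then left out. The shares of all genes printed further above belong to the 2-fold counts with the filter of 1 CPM. No share of all genes was counted at these other settings, so their member counts cannot be set against those shares. The summed class I ratio of FS versus VS turned to -0.021 without the classical genes, and that of VI versus VS turned to 0.13 for the classical genes alone. The summed class II ratio of FS versus VS went from 0.12 to -0.080 without the classical genes. The 56 alternatives for the median ratio of each class were other scalings, filters, FPKM with a pseudocount and the mean. Under all of them it stayed between the median lower and the median upper counting limit of its members. This range holds the spread of single genes and is no interval of the median itself. For class I the median went from -0.11 to -0.28 in FI versus VI with at least 5 CPM. In VI versus VS it went from 0.01 to -0.01 with total counts. The additive model called 0 of 18 members for IT and for amyloidosis with DESeq2 (which left 3 and 1 of them without an adjusted p), limma-voom, each factor alone, no robust estimation, DESeq2 size factors and a filter on 1 library. Ratios of single members moved by less than their counting interval in 276 cases and by more in 12. Depth limits H2-DMa and H2-DMb2, with 14 to 60 counts per library, and 4 class II genes with 25 counts or fewer.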

Other observations

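Below 1 CPM, H2-M2 had 8 counts in FS and 0 in VS, VI and FI, and the class I pseudogene H2-K2 had 16, 8, 9 and 13 counts in VS, VI, FS and FI. The transcription factor gene Irf1, which acts on class I genes, stood at 29.8 (VS), 21.2 (VI), 25.1 (FS) and 19.1 CPM (FI), with an estimate for IT of -0.44 and an adjusted p of 0.162 in the edgeR fit. Rfx5, a subunit of the X box factor, stood at 6.01, 4.15, 4.81 and 3.43 CPM, with -0.51 and an adjusted p of 0.314 in the same edgeR fit. In these 2 genes, as in Psmb9 and the class II chains, the trained pools lay below the sedentary ones. Others of the same kind did not share this: Rfxap and Rfxank, the other subunits of that factor, had log2 ratios of 0.43 (0.22 to 0.64) and 0.07 (-0.37 to 0.51) for VI/VS and of 0.22 (0.02 to 0.43) and 0.53 (0.14 to 0.93) for FI/FS, and Irf2 had 0.12 (0.01 to 0.23) and 0.28 (0.18 to 0.39). These genes were chosen after their values were seen.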
